A study of Mus musculus with 6 samples.

Results

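The genes for receptors of immunoglobulin G and for the adaptors through which they signal were followed in pressure-loaded mouse hearts. The set was defined by name: Fcer1g, Tyrobp, Fcgr1, Fcgr2b, Fcgr3, Fcgr4, Fcgrt, Syk and Clec7a. A gene was included where a row of the value table was annotated with its symbol alone, and the row of highest mean over the 6 arrays was to stand for it. Of the 9 genes, 8 had such a row among 19938 genes, each of them exactly 1, so no choice between rows arose; Fcgrt, the neonatal Fc receptor, is not analysed here. The set was proposed with the genotype differences of these arrays already known, so the differences below describe the set and are not independent evidence that it changed.

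The hearts came from male mice of the inbred FVB strain. In 3 of them a transgene over-expressed the adenosine A2a receptor (A2a-R), which couples to G proteins and raises cyclic AMP, in an inducible and heart-restricted way, and 3 littermates were wild type. All 6 mice had transverse aortic constriction (TAC), in which a ligature narrows the aortic arch and the left ventricle pumps against raised pressure, at 8 weeks of age, and their hearts were taken 14 weeks later. The sources used here name neither the promoter of the transgene nor the inducing agent, and unoperated hearts were not analysed here, so every value refers to loaded hearts. The receptor gene itself, Adora2a, had no row of its own under the same naming rule and is not analysed here, so the genotype labels were not checked on it. Each heart was measured on 1 Affymetrix Mouse Gene 1.0 ST array, and all values are the deposited RMA signals on the log2 scale, where a difference of 1 is a doubling; the number of arrays limits the precision.

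Fc receptors bind the constant part of antibodies and are best known from macrophages, monocytes and other myeloid cells. The activating receptors carry no signalling motif of their own and pair with Fcer1g, the common Fc receptor gamma chain. Fcer1g and the related adaptor Tyrobp (DAP12) hold an immunoreceptor tyrosine-based activation motif (ITAM), whose phosphorylated tyrosines recruit the kinase Syk. Fcgr2b is the inhibitory receptor of the family and carries the opposing motif, ITIM. In the heart these genes are known mainly from resident and recruited macrophages, which clear immune complexes and dying cells.

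Fcer1g rose in the transgenic hearts, and it was the single gene of the set to pass the test over the whole table, which was limma's moderated comparison of the genotypes with p-values adjusted over all tested rows and a threshold of 0.05. Fcgr2b and Fcgr3 lay higher in every transgenic heart than in every wild-type heart without passing, as did Tyrobp by a small margin. Fcgr1, Fcgr4 and Clec7a overlapped between the genotypes. Syk was the single member with a lower mean in the transgenic hearts, and its values overlapped too. In whole hearts, a change in the number of cells of a type and a change in RNA per cell cannot be told apart. The log2 difference, transgenic minus wild type, spanned 0.49 for Fcer1g to -0.13 for Syk.

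The sequences before the transcription starts of the Fc receptor genes are given because Fcgr2b, Fcgr4, Fcgr3 and Fcer1g lie near each other on chromosome 1 and yet differed in their values; Fcgr1, on chromosome 3, is shown beside them. They are the 250 bases before the RefSeq start, 5′ to 3′, from assembly GRCm38.p6 of the C57BL/6J strain, which may differ from FVB. Of the 9 genes 8 had a start in the promoter table. Fcgrt, without expression values here, was among them, and Tyrobp was not. The letters GAGGAA were searched on both strands; they are the core of the purine-rich element bound by PU.1, a transcription factor of the myeloid lineage. Matches are in capitals, and TTCCTC is the match on the opposite strand.
Fcer1g, chr1:171234350-171234599, minus strand: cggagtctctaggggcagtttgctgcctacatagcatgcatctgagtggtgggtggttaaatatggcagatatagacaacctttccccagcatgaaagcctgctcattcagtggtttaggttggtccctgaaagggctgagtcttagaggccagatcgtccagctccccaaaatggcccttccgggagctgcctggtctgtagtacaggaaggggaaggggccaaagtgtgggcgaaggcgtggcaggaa
Fcgr2b, chr1:170976072-170976321, minus strand: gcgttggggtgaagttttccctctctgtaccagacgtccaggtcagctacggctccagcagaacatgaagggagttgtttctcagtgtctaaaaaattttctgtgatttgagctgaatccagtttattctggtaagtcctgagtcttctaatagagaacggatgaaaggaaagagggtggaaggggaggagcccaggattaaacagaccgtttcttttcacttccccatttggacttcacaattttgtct
Fcgr3, chr1:171059395-171059644, minus strand: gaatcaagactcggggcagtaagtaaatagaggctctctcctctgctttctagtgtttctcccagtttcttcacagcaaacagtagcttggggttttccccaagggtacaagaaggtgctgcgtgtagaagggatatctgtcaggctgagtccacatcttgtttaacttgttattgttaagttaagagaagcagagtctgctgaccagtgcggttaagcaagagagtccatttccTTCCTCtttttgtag
Fcgr1, chr3:96293970-96294219, minus strand: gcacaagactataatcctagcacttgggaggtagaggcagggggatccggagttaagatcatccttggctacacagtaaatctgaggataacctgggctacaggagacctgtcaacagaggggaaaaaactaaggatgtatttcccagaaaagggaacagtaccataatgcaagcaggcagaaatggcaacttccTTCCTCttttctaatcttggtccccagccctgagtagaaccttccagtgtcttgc
Fcgr4, chr1:171018676-171018925, plus strand: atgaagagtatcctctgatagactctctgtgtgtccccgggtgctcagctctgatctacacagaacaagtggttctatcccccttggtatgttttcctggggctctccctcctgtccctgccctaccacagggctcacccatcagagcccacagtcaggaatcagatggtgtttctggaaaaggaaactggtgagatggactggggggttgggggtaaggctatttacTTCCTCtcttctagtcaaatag
The letters were found in the windows of Fcgr3, Fcgr1 and Fcgr4, in each case as TTCCTC, and not in those of Fcer1g and Fcgr2b. In Fcgr1 they stood 50 to 55 bases before the start, and in Fcgr4 17 to 22. Fcgr3 has 2 starts in the table; the one printed has the match 10 to 15 bases before it. Over all 32851 windows of this length 23.3% held the letters, and of the 11 windows of the set's genes 7 did, several of which overlap each other. These matches describe letters in these windows, and the genes with GAGGAA were not those with the highest differences.

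Among the adaptors, Fcer1g had log2 values of 9.10, 9.08 and 9.18 in the transgenic hearts, against 8.62, 8.79 and 8.48 in the wild-type hearts. The transgenic hearts lay close together and all above the highest wild-type heart. The means were 9.12 ± 0.05 in transgenic and 8.63 ± 0.16 in wild-type hearts (SD, n = 3 each), a 1.4-fold higher level with a log2 difference of 0.49 ± 0.08 (SE), a 95% interval of 0.30 to 0.68 and a limma adjusted p of 0.042. The call was fragile. It held without wild-type replicate 2 (limma adjusted p = 0.0415) but was lost without any other single array, with limma adjusted p of 0.131 and 0.104 without wild-type replicates 1 and 3, and of 0.101, 0.0956 and 0.138 without transgenic replicates 1, 2 and 3; the log2 difference stayed between 0.415 and 0.57.

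Tyrobp, the adaptor of TREM receptors and other myeloid receptors, had log2 values of 9.04, 9.05 and 9.02 in the transgenic hearts, against 9.01, 8.88 and 8.89 in the wild-type hearts. The groups were apart by 0.01 at their nearest values, transgenic replicate 3 and wild-type replicate 1. The log2 difference was 0.11 ± 0.06 (SE), with a 95% interval of -0.03 to 0.25 and a limma adjusted p of 0.444. Fcer1g minus Tyrobp was 0.06, 0.03 and 0.16 in the transgenic hearts, against -0.39, -0.09 and -0.41 in the wild-type hearts. The means of this contrast differed by 0.38 and the groups did not overlap; an exact two-sided permutation test over the hearts gave p = 0.1, the smallest that 3 against 3 allow, and the contrast was formed with the differences of both genes known.

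**Figure D1:**
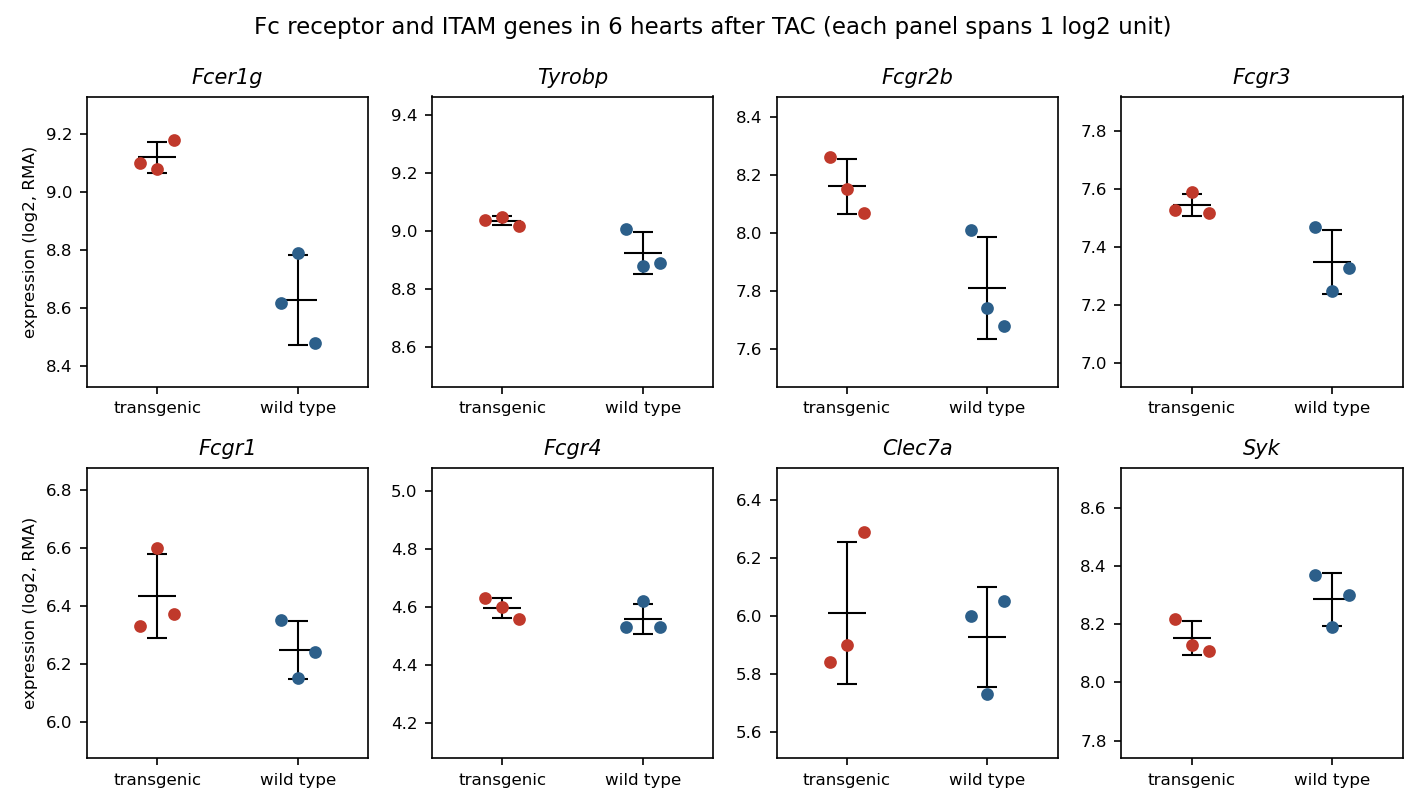
Log2 expression (RMA values) of the 8 genes in each heart, with 3 transgenic hearts at the left and 3 wild-type hearts at the right of each panel; points are hearts, bars the mean and SD, and each panel spans 1 log2 unit around its own centre. Fcer1g is separated most widely, with transgenic hearts at 9.08 to 9.18 and wild-type hearts at 8.48 to 8.79, while Fcgr1, Fcgr4, Clec7a and Syk overlap.

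Among the IgG receptors, the inhibitory Fcgr2b had log2 values of 8.26, 8.15 and 8.07 in the transgenic hearts, against 8.01, 7.74 and 7.68 in the wild-type hearts. Wild-type replicate 1 was the nearest to the transgenic values, and the groups did not overlap. The means were 8.16 ± 0.10 in transgenic and 7.81 ± 0.18 in wild-type hearts (SD, n = 3 each), with a log2 difference of 0.35 ± 0.10 (SE), a 95% interval of 0.13 to 0.57 and a limma adjusted p of 0.156. The gene stayed above the threshold of 0.05 in each of 15 alternative settings, with adjusted p of 0.0697 to 0.359.

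Fcgr3, a low-affinity activating receptor that needs Fcer1g for its signal, had log2 values of 7.53, 7.59 and 7.52 in the transgenic hearts, against 7.47, 7.25 and 7.33 in the wild-type hearts. The groups did not overlap, with wild-type replicate 1 again the nearest. The log2 difference was 0.20 ± 0.07 (SE), with a 95% interval of 0.04 to 0.36 and a limma adjusted p of 0.255. Fcgr2b minus Fcgr3, the inhibitory against the activating receptor, was 0.73, 0.56 and 0.55 in the transgenic hearts, against 0.54, 0.49 and 0.35 in the wild-type hearts. The groups were separated by 0.01 there and their means differed by 0.15, with an exact two-sided permutation p of 0.1, again the smallest possible.

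Fcgr1, the high-affinity IgG receptor, had log2 values of 6.33, 6.60 and 6.37 in the transgenic hearts, against 6.35, 6.15 and 6.24 in the wild-type hearts. Transgenic replicate 2 was the highest, and transgenic replicate 1 lay below wild-type replicate 1, so the groups overlapped. The log2 difference was 0.19 ± 0.09 (SE), with a 95% interval of -0.02 to 0.39 and a limma adjusted p of 0.376; without transgenic replicate 2 it was 0.10.

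Fcgr4, an activating receptor of mouse monocytes, macrophages and neutrophils, had log2 values of 4.63, 4.6 and 4.56 in the transgenic hearts, against 4.53, 4.62 and 4.53 in the wild-type hearts. The signal was dim, in the lowest 8.3% of tested rows, where RMA compresses differences, and the groups overlapped. The log2 difference was 0.04 ± 0.06 (SE), with a 95% interval of -0.095 to 0.168 and a limma adjusted p of 0.827; its sign turned to -0.0233 after a further quantile normalization.

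The remaining members are a receptor outside the Fc receptor family and a kinase. Clec7a (Dectin-1), a receptor for fungal beta-glucan with a single-tyrosine variant of the ITAM, had log2 values of 5.84, 5.90 and 6.29 in the transgenic hearts, against 6.0, 5.73 and 6.05 in the wild-type hearts. Transgenic replicate 3 was the highest and the other transgenic hearts lay within the wild-type range. The log2 difference was 0.08 ± 0.13 (SE), the widest error of the set, with a 95% interval of -0.22 to 0.39 and a limma adjusted p of 0.829; without transgenic replicate 3 it was -0.0567 and without wild-type replicate 2 it was -0.015.

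Syk, the kinase that docks on phosphorylated ITAMs, had log2 values of 8.22, 8.13 and 8.11 in the transgenic hearts, against 8.37, 8.19 and 8.30 in the wild-type hearts. Transgenic replicate 1 lay above wild-type replicate 2, and the other values were separated by genotype. The log2 difference was -0.13 ± 0.07 (SE), with a 95% interval of -0.29 to 0.02 and a limma adjusted p of 0.414. Fcer1g minus Syk was 0.88, 0.95 and 1.07 in the transgenic hearts, against 0.25, 0.60 and 0.18 in the wild-type hearts. The groups did not overlap in this contrast, whose means differed by 0.62 with an exact two-sided permutation p of 0.1, the smallest possible; it sets the members with the highest and the lowest difference against each other, so it is a description.

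**Figure D2:**
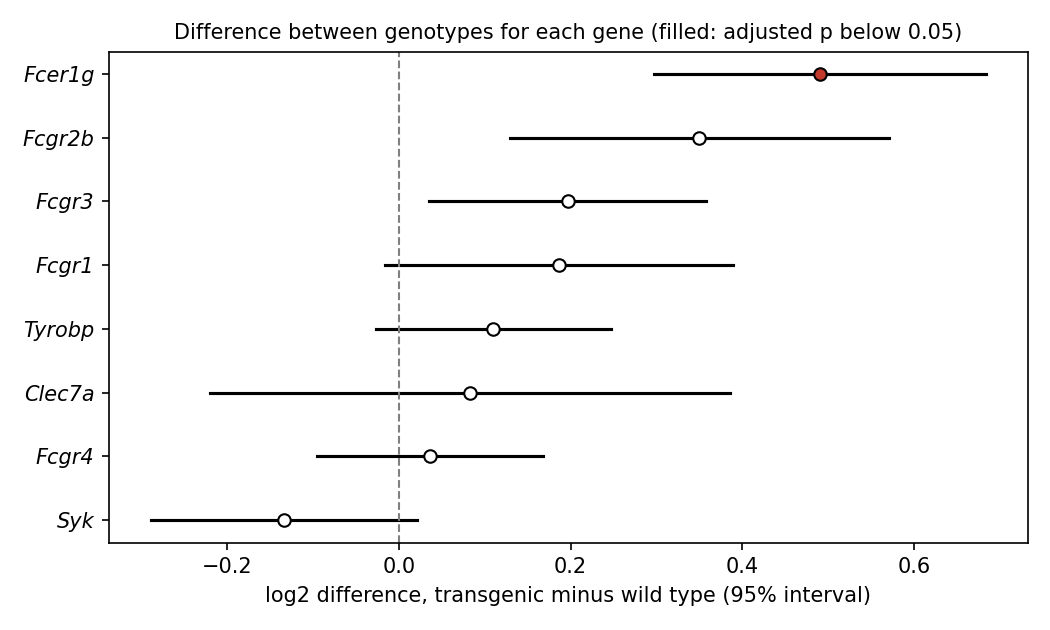
Log2 difference, transgenic minus wild type, of each gene with its 95% interval from limma; the filled point passed at an adjusted p below 0.05. The interval of Fcer1g (0.30 to 0.68) and those of Fcgr2b and Fcgr3 exclude 0, and that of Syk lies mostly below 0.

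Over the set, 7 of the 8 genes had a higher mean in the transgenic hearts, against 44.8% of all tested rows; 1 rose by limma over all rows, 0 fell and 7 did not pass. Over all 21789 tested rows, 0.959% were called, 0.519% higher and 0.441% lower; more rows were called lower than higher without the dimmest rows or with a trended prior. The groups did not overlap, with the transgenic hearts higher, in 4 of the 8, against 7.73% of all rows, and with them lower in 0 of the 8, against 12.6%. At an unadjusted p below 0.05, 3 were higher and 0 lower, against 6.27% and 8.51% of all rows. The median log2 difference was 0.15 for the 8 genes and -0.01 for all tested rows. Since the set was chosen with these differences known, none of these counts was tested.

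On chromosome 1 the order of protein-coding genes in RefSeq is Fcgr2b, Fcgr4 and Fcgr3, then 7 other genes, then Fcer1g. The members there had log2 differences of 0.35, 0.04, 0.20 and 0.49, in that order. Between Fcgr3 and Fcer1g 6 genes were measured, among them Sdhc, a subunit of mitochondrial complex II, at 0.10 ± 0.08 (SE), and Apoa2, an apolipoprotein next to Fcer1g, at 0.09 ± 0.08. Of the 10 measured genes that lay between the members or within 3 genes on either side, 0 passed in limma and 1 did not overlap between the groups, B4galt3, a galactosyltransferase, at -0.13 ± 0.06. Their differences spanned -0.13 to 0.15, below those of Fcgr2b, Fcgr3 and Fcer1g. The highest was Cfap126, next to Fcgr3, at 0.15 ± 0.07 (SE). The 10 neighbours were taken by position alone, and those named were picked after their values had been seen.

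**Figure D3:**
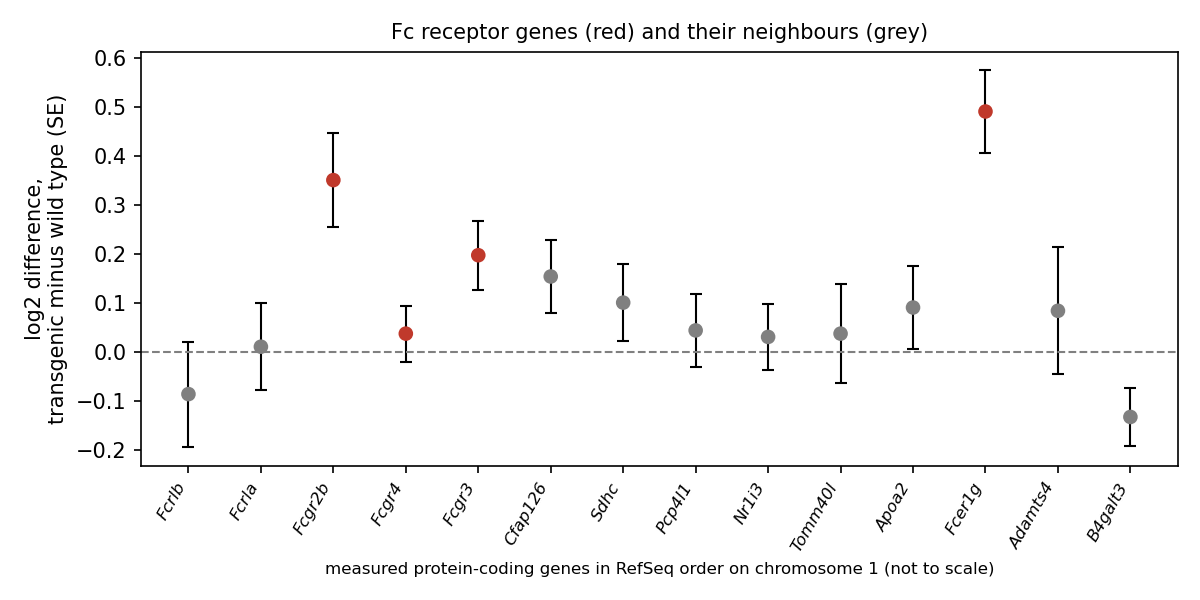
Log2 difference, transgenic minus wild type, with its SE, for the measured protein-coding genes around the chromosome 1 members, in gene order and not to scale; members are red and neighbours grey. Fcgr2b at 0.35 and Fcer1g at 0.49 stand above the neighbours, which span -0.13 to 0.15, whereas Fcgr4 at 0.04 lies among them.

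Most markers of macrophages and monocytes had higher means in the same hearts, and few passed. The 20 markers, with no member of the set among them, had a mean log2 value of 8.12 to 8.17 in the transgenic hearts, against 7.77 to 7.93 in the wild-type hearts. Of the 20, 18 had a higher mean in the transgenic hearts, and the median difference of the 20 was 0.27. In limma 2 rose, 0 fell and 18 did not pass. At an unadjusted p below 0.05, 14 were higher and 0 lower, against 6.27% and 8.51% of all tested rows. Itgam and Aif1 both differed by -0.06 and Cd163 by 0.003, each with overlap. These 3 genes were named after their values had been seen. The count of called markers depended on the setting, with 6 after a further quantile normalization, 6 after median centring, 8 without the dimmest rows, 9 with a trended and robust prior, 4 with array weights, 3 with gene means and 1 with the replicate number as a block. The genes that rose were Lgals3, which encodes galectin-3, at 0.61 ± 0.06 (SE, limma adjusted p = 0.00423), and Lyz1, a lysozyme, at 0.53 ± 0.08 (adjusted p = 0.0271). Lyz2, the other lysozyme gene of the list, differed by 0.41 ± 0.10 and did not pass (limma adjusted p = 0.112). It was named after its values had been seen. The lysosomal protease Ctss differed by 0.36 ± 0.07 with a limma adjusted p of 0.0503. It passed in 7 of 15 alternative settings, among them a further quantile normalization (0.0268), median centring (0.044) and a threshold of 0.10. In the other 8 it did not pass, among them the replicate block (0.082) and leaving out any single array (0.0814 to 0.155). The call of Lgals3 held without any single array (limma adjusted p up to 0.0303). That of Lyz1 held without wild-type replicate 1 but was lost without wild-type replicate 2 or 3 and without transgenic replicate 1, 2 or 3 (0.0776 to 0.12). Of the list, 3 markers passed without wild-type replicate 1 and 3 without wild-type replicate 2, and 1 passed without each of the other arrays. The part of macrophage content in the values of Fcer1g and the receptors was not tested.

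Each member was also set against the mean of these markers in the same heart. That mean itself was 0.28 higher in the transgenic hearts, without overlap. A gene with equal levels in both genotypes therefore comes out lower against it in the transgenic hearts. Fcer1g minus the mean of the macrophage list was 0.98, 0.91 and 1.03 in the transgenic hearts, against 0.69, 0.88 and 0.71 in the wild-type hearts, a difference of 0.21 between the means without overlap. Fcgr2b minus the list mean was 0.14, -0.02 and -0.08 in transgenic hearts, against 0.08, -0.17 and -0.09 in wild-type hearts, which overlapped. Fcgr3 minus the list mean overlapped too, with a difference of -0.08. Tyrobp minus the list mean was 0.92, 0.88 and 0.87 in transgenic hearts, against 1.08, 0.97 and 1.12 in wild-type hearts, a difference of -0.17 without overlap. Syk minus the list mean differed by -0.41 between the genotypes and did not overlap, and Fcgr4 minus the list mean differed by -0.24. Exact two-sided permutation tests gave p = 0.1, the smallest possible, for Fcer1g, Tyrobp, Fcgr4 and Syk, 0.3 for Fcgr1 and Clec7a, 0.4 for Fcgr3 and 0.5 for Fcgr2b. Over these 8 and the 3 contrasts between members, 11 comparisons in all, the Benjamini-Hochberg adjusted value of each p of 0.1 was 0.157, so no member was shown to differ from the list or from another member, which 3 hearts against 3 could not show by this test.

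The genes whose pattern over the 6 hearts was most like that of Fcer1g, measured as the root mean square difference of their deviations from the mean of the 6 arrays, were C1qc, H2-Ab1 and H2-Aa. C1qc encodes a chain of complement C1q, and H2-Ab1 and H2-Aa the chains of an MHC class II molecule. C1qc had log2 values of 9.79, 9.82 and 9.81 in the transgenic hearts, against 9.31, 9.52 and 9.18 in the wild-type hearts, with the same order of the wild-type hearts as Fcer1g. The root mean square difference was 0.0354 for C1qc, 0.0499 for H2-Ab1 and 0.063 for H2-Aa on the log2 scale. Their log2 differences were 0.47, 0.48 and 0.54, and none passed (limma adjusted p = 0.0558, 0.0893 and 0.0534). For Tyrobp the nearest were Htr6, a serotonin receptor, Smim24, a small membrane protein, and Scpep1, a serine carboxypeptidase, at 0.0173, 0.018 and 0.018; the log2 differences of these genes were 0.11, 0.12 and 0.11. Profiles as flat as that of Tyrobp are close to many others by this measure, and 6 arrays are few, so likeness is given as a description.

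Markers of the other cell types that carry Fc receptors or ITAM chains, and of the other cells of the heart, held no called gene. Medians of the 11 other marker lists lay between -0.06 and 0.08, 0 of their 90 entries passed in limma, and no list was tested against the macrophage markers; 0 of the 11 had mean levels without overlap between the groups. Of 10 neutrophil markers 0 were higher or lower at an unadjusted p below 0.05 and the median was -0.045, with S100a9 and Elane sharing the highest signal at -0.06 and 0.15. The same count was 0 of 9 for mast cell markers (median -0.02), with Kit at -0.12. Of 8 NK cell markers 1 was higher and 1 lower at that level (median 0.08), with Prf1 at 0.06. For 8 dendritic cell markers the median was 0.05, 7 had a higher mean in the transgenic hearts and 1 was higher at that level. Zbtb46, the brightest of them, differed by -0.14, and Ccr7, Cd209a and Itgax, named after their values had been seen, by 0.27, 0.26 and 0.16. For 8 T cell markers it was 0.07, 1 was higher, and Cd3e differed by 0.11.

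Of 7 B cell markers 1 was higher and 2 lower at an unadjusted p below 0.05 (median 0.03), with Cd79b at -0.01. The higher was Ms4a1 at 0.19 (limma adjusted p = 0.288). The lower were Blk at -0.34 (adjusted p = 0.0705) and the dim Cd79a at -0.35 (0.137). Of 6 plasma cell markers 1 was lower (median 0.015), with Sdc1 at 0.04. The lower was Mzb1 at -0.36 (limma adjusted p = 0.0569). Groups did not overlap in Ms4a1, higher in the transgenic hearts, or in Blk, Cd79a and Mzb1, lower in them. Over all tested rows, 7.73% were separated with the transgenic hearts higher and 12.6% with them lower. Ms4a1, Blk and Mzb1 were named after their values had been seen. Of 6 platelet markers 2 were lower (median -0.025). Among them Gp9, named after its values had been seen, differed by -0.32 without overlap (limma adjusted p = 0.0608). The brightest marker was the chemokine Ppbp, at 7.54, 8.30 and 8.82 in the transgenic hearts, against 9.20, 8.87 and 8.76 in the wild-type hearts. Its difference was -0.72 ± 0.28 (SE, limma adjusted p = 0.291), transgenic replicate 1 was the lowest heart, and the groups overlapped. The platelet markers' mean level was 6.81 to 7.07 in the transgenic hearts and 7.05 to 7.12 in the wild-type hearts. Among 10 endothelial markers 1 was lower (median -0.06), with Cdh5 at -0.06, and 9 fibroblast markers had a median of 0.00, with Dcn at -0.07. Cardiomyocyte genes were bright, as the tissue label implies: the mean of 9 such markers was 13.37 to 13.42 in the transgenic hearts and 13.35 to 13.41 in the wild-type hearts, with Tnnt2, the cardiac troponin T gene, at 14.02 over the 6 arrays. Of these 9, 1 was higher at an unadjusted p below 0.05. It was Ryr2, named after its values had been seen, at 0.25 without overlap (limma adjusted p = 0.149).

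Other genes of the pathway were taken from lists by role, written with earlier results of these data known. None of the receptors listed as partners of Fcer1g or Tyrobp passed. The list is broad, and not all of its receptors depend on these adaptors for their signal. Of 19 measured, 0 rose or fell in limma and 15 had a higher mean in the transgenic hearts. At an unadjusted p below 0.05, 1 was higher, and the median difference was 0.08. Trem1, which amplifies inflammatory responses through Tyrobp, had log2 values of 4.79, 4.94 and 4.96 in the transgenic hearts, against 4.78, 4.77 and 4.59 in the wild-type hearts. The difference was 0.18 ± 0.08 (SE, limma adjusted p = 0.324), on a dim signal in the lowest 10.9% of tested rows. Itgb2, the common beta chain of leukocyte integrins, differed by 0.17 ± 0.08, and Csf1r, the receptor for macrophage colony-stimulating factor, by 0.14 ± 0.07. Without 1 array these values went down to 0.12 for Trem1 (wild-type replicate 3), 0.0967 for Itgb2 (transgenic replicate 3) and 0.0883 for Csf1r (wild-type replicate 3). In Trem1, Itgb2 and Csf1r the groups did not overlap. Trem2, the lipid-sensing partner of Tyrobp, overlapped at 7.86, 7.92 and 7.70 in transgenic hearts, against 7.70, 7.78 and 7.51 in wild-type hearts; it was named after its values had been seen.

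The kinases and adaptors downstream of the ITAM were split in direction. Of 24 measured, 0 passed in limma; 3 were higher and 4 lower at an unadjusted p below 0.05, and the median difference was -0.01. Fyn, a Src-family kinase that phosphorylates ITAMs, had log2 values of 8.84, 8.84 and 8.90 in the transgenic hearts, against 9.20, 9.10 and 9.13 in the wild-type hearts. These groups were well apart, with a difference of -0.28 ± 0.06 (SE, limma adjusted p = 0.0729). Malt1, the paracaspase that links Syk to NF-kB, differed by 0.17 ± 0.06 (adjusted p = 0.224), and Lcp2 (SLP-76), a scaffold phosphorylated by Syk, by 0.20 ± 0.08 (adjusted p = 0.299).

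Among the brakes of ITAM signalling, which include phosphatases and ITIM receptors, the members with the smallest p lay higher in the transgenic hearts. Of 23 measured, 0 passed in limma; 4 were higher and 1 lower at an unadjusted p below 0.05, and the median difference was 0.02. Pirb, an ITIM receptor of myeloid and B cells, had log2 values of 7.77, 7.87 and 7.64 in the transgenic hearts, against 7.41, 7.35 and 7.17 in the wild-type hearts. All transgenic hearts were above all wild-type hearts, and the difference was 0.45 ± 0.09 (SE, limma adjusted p = 0.0622). Sla, an adaptor that dampens antigen receptor signals, differed by 0.34 ± 0.08 (adjusted p = 0.104). Clec12a, an ITIM lectin, was at 6.38, 6.74 and 6.96 in transgenic hearts, against 6.35, 6.17 and 6.25 in wild-type hearts (limma adjusted p = 0.198). Without transgenic replicate 1, its lowest transgenic heart, the adjusted p was 0.0454, and without any other single array it was 0.266 to 0.412. Lilrb4a, another ITIM receptor and named after its values had been seen, differed by 0.35 ± 0.12 (adjusted p = 0.236). The 1 lower gene was also an ITIM receptor, Siglece, named in the same way. It differed by -0.15 ± 0.06 (limma adjusted p = 0.3), with every transgenic heart below every wild-type heart. The phosphatases themselves differed little, with Inpp5d (SHIP1) and Ptpn6 (SHP-1), also named after their values had been seen, both at 0.02.

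**Figure D4:**
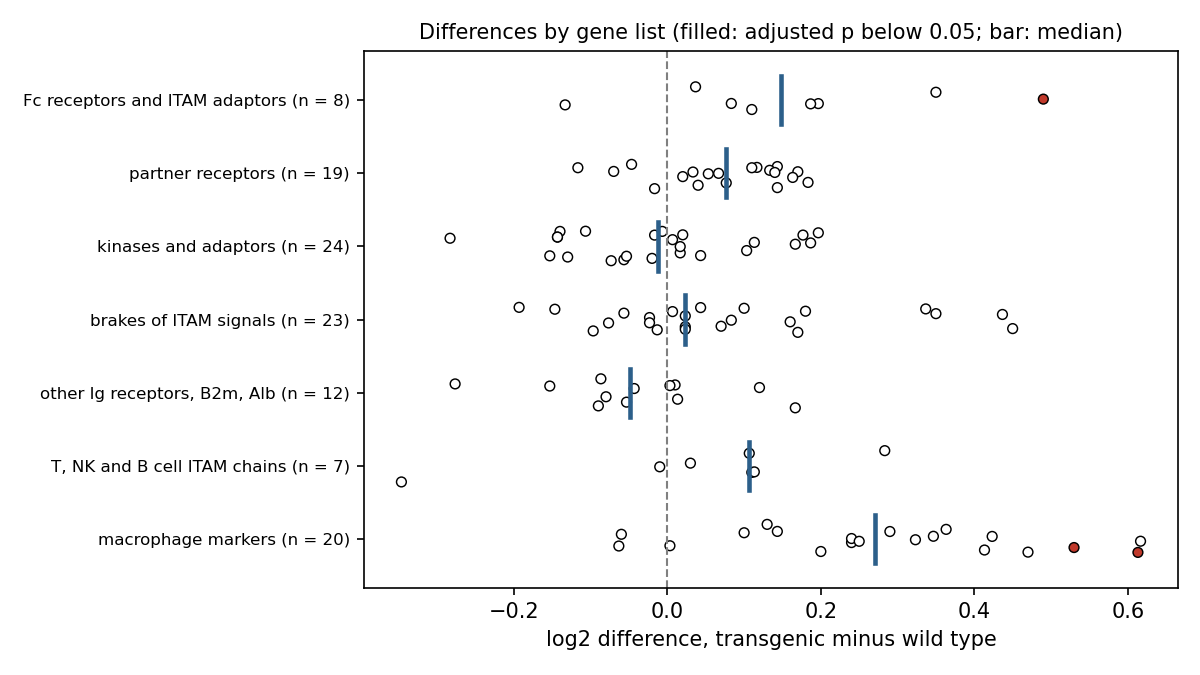
Log2 difference, transgenic minus wild type, of each measured gene by list, with the number of genes in parentheses; points are genes, filled where they passed at an adjusted p below 0.05, and the bar is the list's median. Fcer1g is the filled point of the Fc receptor set, Lgals3 and Lyz1 are those of the macrophage markers (median 0.27), and the kinases and adaptors centre at -0.01.

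Other immunoglobulin receptors and the partner and cargo of Fcgrt showed no call in limma among 12 genes, with 0 higher and 1 lower at an unadjusted p below 0.05 and a median of -0.05. The lower gene was Pigr, which carries polymeric antibodies across epithelia, at -0.28 ± 0.08 (SE, limma adjusted p = 0.186). B2m, the light chain shared by Fcgrt and MHC class I molecules, differed by 0.17 ± 0.09 (0.0633 without wild-type replicate 3). Fcrls, an Fc receptor-like gene, differed by -0.15 ± 0.11, and by -0.0683 to -0.2633 without single arrays. Of 7 signalling chains of T, NK and B cells 0 passed in limma, with 1 higher and 1 lower at an unadjusted p below 0.05 and a median of 0.11. Cd79a, a chain of the B cell receptor, was at 4.34, 4.42 and 4.19 in the transgenic hearts, against 4.52, 4.80 and 4.67 in the wild-type hearts. The difference was -0.35 ± 0.09 (limma adjusted p = 0.137), on a dim signal in the lowest 7.4% of tested rows. The T cell receptor chains Cd3g and Cd247 differed by 0.28 ± 0.11 and 0.11 ± 0.07, and went down to 0.18 without wild-type replicate 3 and to 0.0733 without transgenic replicate 3.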

How the data were processed

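The values the authors deposited are log2 expression values of 6 arrays. RMA (background correction, quantile normalization, probe summary) and Partek are named in the submitters' processing notes; the sources used here give no version, setting or genome build. RMA hides global shifts of RNA content and compresses dim and very bright signals. The 28853 rows were named from the platform annotation: 21789 had exactly 1 symbol and were tested, and for a gene with several rows the one of highest mean was used. Transgenic minus wild type was fitted with limma 3.58.1 in R 4.3.3 (lmFit and eBayes, no covariate), with Benjamini-Hochberg adjustment over all tested rows at 0.05; the code was tested on simulated data. Arrays are separate mice per the design text, and no array equalled another. Within a genotype, arrays correlated at 0.9958 to 0.9973 (Pearson, across rows). Values set against another row used exact permutation over hearts.

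The members, the gene lists and the rules were chosen with earlier results of these data known. Named genes are the members, the called genes or the 3 smallest p of each pathway list and of the macrophage list, the brightest gene of each other marker list, and the 3 genes most like Fcer1g and Tyrobp; the chromosome 1 neighbours and genes marked as such were named after their values had been seen. Promoter sequences are from RefSeq (GRCm38.p6). Alternatives were a replicate block, other scalings, a filter on dim rows, a trended robust prior, array weights, all rows, gene means, a threshold of 0.10 and leaving out each array.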

Additional observations from a re-analysis of the deposited data

How the results depend on the processing

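Of the 8 Fc receptor and ITAM genes, 1 was called in the design as fitted; 0 were called with the replicate number as a block and with all rows of the value table, and 0 to 1 without single arrays. Fcer1g kept its sign in each of 15 settings (0.415 to 0.57), with limma adjusted p of 0.114 under the replicate block and 0.0655 over all rows. The last of these tests more rows; otherwise the cause was not tested. The 209 called rows (113 higher, 96 lower) became 97 under the replicate block, 493 without the dimmest 40% of rows (184 higher, 309 lower), 579 with a trended and robust prior (240 higher, 339 lower), 476 at an adjusted p below 0.10 (230 higher, 246 lower), and 84 to 147 without single arrays. Called brakes of ITAM signals numbered 1 after quantile normalization, median centring, the trended prior, array weights or the looser threshold (Pirb in each), 2 without the dimmest rows (Pirb and Sla), and 0 to 1 without single arrays. Called kinases and adaptors numbered 1, Fyn, without the dimmest rows, with the trended prior and at the looser threshold. Fcgr4 turned to -0.0233 after quantile normalization, and Clec7a spanned -0.0567 to 0.168 without single arrays. Tyrobp, Fcgr1, Fcgr2b, Fcgr3 and Syk kept their sign and stayed uncalled in every setting that tested them. Equal replicate numbers are not said to mark a shared litter or day, so they were not taken as pairs. Deviations of same-numbered hearts correlated at 0.155, -0.011 and -0.104, and those of unlike-numbered hearts at -0.207 to 0.234. With 3 hearts per group these correlations cannot decide whether the hearts were paired. Dim signals, as of Fcgr4, Cd79a and Trem1, limit what could be seen.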
